A study of Mus musculus with 18 samples.

Results

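The comparison described here sets 3 libraries of macrophages from the in vivo arm called 1xLPS against 3 from the PBS arm, all without LPS in the dish, and takes in every gene of the count table. These are 6 of the 18 libraries of the series, chosen by the arm and in vitro condition in their titles. All were bone-marrow-derived macrophages, that is, cells grown out from the marrow of mice, from wild-type C57BL/6J animals, cultured in F12 DMEM with 10% FBS. The control group (PBS) came from animals given PBS in vivo, the other (1xLPS) from animals given LPS in vivo under that name, and neither group was stimulated in vitro. Dose, route, the interval to marrow harvest, sex, age and the number of animals behind a library were not given in the sources used here. Separate animals or cultures behind the 3 libraries of a group are not stated, so p-values cover the spread between libraries only, part of which may be technical. In 12 of the 18 samples the treatment tag named another arm than the title, and among the 6 compared this held for the 3 titled PBS, which were tagged 4xLPS. Groups follow the arm in the names of the count columns, which equals the title; the running number in each of those names points to the sample whose tag gives that same arm, so the columns used as PBS are PBS by either route. The remaining arms, 4xLPS and the LPS-stimulated counterparts of all 3 arms, are used only beside these values.

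Lipopolysaccharide (LPS) is a component of the outer membrane of Gram-negative bacteria that macrophages recognise through CD14, MD-2 and the receptor TLR4. The receptor signals through the adaptors MyD88 and TRIF to NF-κB and interferon regulatory factors, which switch on cytokine genes and, with them, inhibitors of the same pathway such as IκBα, A20 and SOCS3. Exposure to LPS can leave innate cells and their marrow progenitors with altered later responses, known as tolerance where the response is weaker and as training where it is stronger. Comparing unstimulated cells asks whether the macrophages of the 2 arms already differed at rest, before any LPS reached them in culture.

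No gene passed the test. By edgeR's quasi-likelihood test with Benjamini-Hochberg adjustment, 0 of 14158 genes tested were called higher or lower in 1xLPS at an adjusted p under 0.05 (0% in each direction), and the smallest adjusted p was 0.312. At an unadjusted p under 0.05, 1090 genes (7.7%) were higher and 579 (4.09%) lower. The 3 libraries of a group lay wholly above the 3 of the other for 901 genes (6.36%) and wholly below for 715 (5.05%), and all counts of separate groups given below are to be read against these shares. The median log2 fold change over all genes was 0.01. For 9365 genes (66.1%) the 95% interval of the log2 fold change lay within 1 of 0, so a 2-fold difference lay outside it, and the median half-width of the interval was 0.51. In the authors' deposited table of comparisons the pair of unstimulated 1xLPS and PBS groups is entered as "No DE".

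Some other ways of testing gave calls. The rest, given in the closing section, gave 0, among them limma voom without quality weights. DESeq2 called 28 genes, 26 of them higher, limma voom with sample quality weights called 556, of which 324 were higher, and edgeR without any filter on low counts called 159 of 36511, of which 107 were higher. Without the second 1xLPS library, edgeR's test called 1593 genes, 807 higher and 786 lower. Of the 26 genes that DESeq2 called higher, 20 were also called by voom with quality weights and without the second 1xLPS library, as were both genes it called lower, Atp6v0e and Lair1. Every gene described below is therefore given as a set of measured values and not as a called change, with DESeq2's adjusted p, or its range over several genes, where that test called it.

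The 1xLPS libraries were less alike than the PBS libraries. Total counts were 33340404, 26022517 and 26355647 in PBS and 29720162, 51275987 and 9296453 in 1xLPS, so that a gene with 3 counts stood at 0.0585 to 0.323 CPM (counts scaled to the same library total). All CPM values here are scaled with TMM factors (a scaling for library composition). On the second principal component of all 18 libraries, which held 14.5% of the variance, the first 1xLPS library stood at 68.5 and the other 5 between -29.9 and 8.5. Levels in the 1xLPS libraries also moved with the GC content of the transcript. In the 2700 genes of lowest GC content (31 to 44.1%), the median log2 difference from the PBS mean was -0.46, 0.07 and -0.47 in 1xLPS libraries 1, 2 and 3, and in the 2700 of highest GC content (55.3 to 78.6%) it was 0.53, -0.11 and 0.32. Libraries 1 and 3 thus shared a slope that the second did not. In the PBS libraries the same medians lay between -0.07 and 0.11. Of the genes at an unadjusted p under 0.05, 563 of the 2700 of highest GC content were higher and 22 lower, against 27 higher and 261 lower of the 2700 of lowest GC content. The genes called without the second 1xLPS library had a median GC content of 56.8% where higher and 42.1% where lower, against 49.8% for all genes. For DESeq2's calls these medians were 56.0% and 44.2%, and for those of voom with quality weights 56.9% and 42.3%. Values fitted with a correction for GC content were therefore added after the data were seen. For single genes they are given where they differ from the main value by more than 1.5 times or in sign. They are also given for some other genes and for some list medians. Of 100 genes named, 30 were smaller by more than 1.5 times with the correction, 6 were larger by as much and 5 changed sign. DESeq2 and voom were run without the correction, so their calls and adjusted p do not take GC content into account. The part of GC content in single results was not tested.

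**Figure D1:**
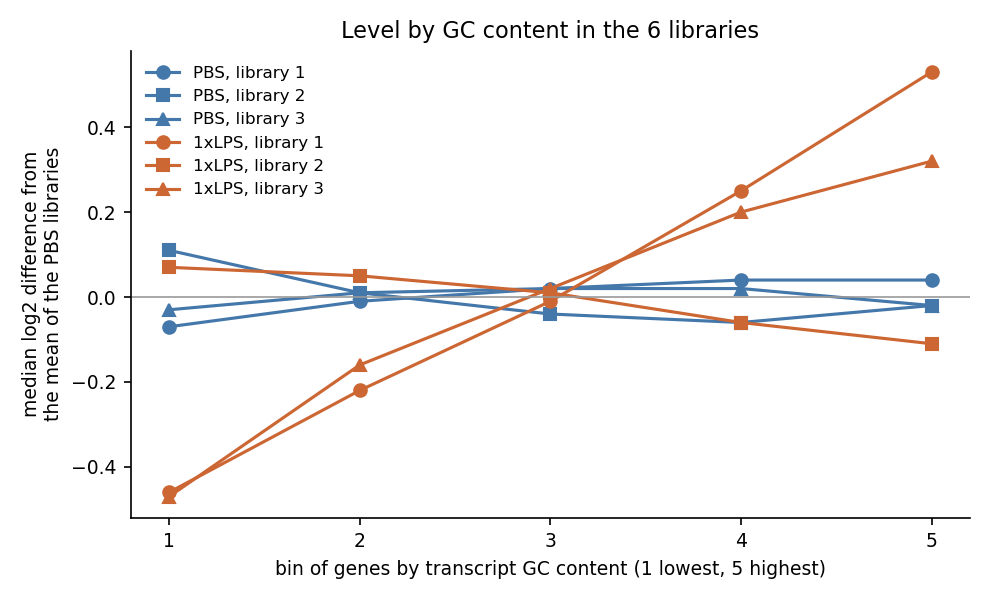
Median log2 difference from the mean of the 3 PBS libraries (vertical axis) for 5 bins of 2700 genes each, ordered by transcript GC content (horizontal axis, bin 1 lowest), with 1 line per library. 1xLPS libraries 1 and 3 run from -0.46 and -0.47 to 0.53 and 0.32, while 1xLPS library 2 and the PBS libraries stay between -0.11 and 0.11.

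Among the 10 genes higher in 1xLPS with the smallest p, Mmp14 came first, a membrane-anchored metalloprotease that cleaves collagen and activates other metalloproteases (chr14:54431612-54445364, mm10). It measured 98.2, 84.5 and 89.1 CPM in PBS and 205, 136 and 159.7 CPM in 1xLPS. Every 1xLPS library lay above every PBS library. The log2 fold change was 0.88 ± 0.16 (SE), with an adjusted p of 0.312 by edgeR's quasi-likelihood test with Benjamini-Hochberg adjustment and 0.00156 by DESeq2, and 0.72 with the GC correction. Col6a1 and Col6a2, which encode chains of the beaded-filament collagen VI and lie next to each other on chromosome 10, stood beside it. Col6a1 measured 104, 88.7 and 119.5 CPM in PBS and 297, 195 and 188 CPM in 1xLPS (log2 fold change 1.12 ± 0.21), and Col6a2 112, 106 and 97.2 CPM against 375, 160.2 and 186 CPM (1.19 ± 0.28). In both genes the first 1xLPS library was the highest, and the groups did not overlap.

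The other 7 genes on the higher side have varied roles. Rarg, a nuclear receptor for retinoic acid, measured 20.4, 18.5 and 18.3 CPM in PBS and 41.3, 26.1 and 34.6 CPM in 1xLPS, a log2 fold change of 0.83 ± 0.16 and of 0.55 with the GC correction. Rab20, a small GTPase of the endosomal and phagosomal pathway, measured 19.6, 15.7 and 17.4 CPM against 26.5, 27.5 and 33.6 CPM (0.73 ± 0.14). Sh3gl1, an endophilin of membrane curvature, gave 0.65 ± 0.13, and the actin-associated Synpo 1.28 ± 0.27 from a mean of 4.36 ± 0.386 CPM (SD, n = 3) in PBS. The first 1xLPS library was the highest of its group for Rarg and Synpo and the lowest for Rab20. Gstp1, a glutathione transferase, gave 0.94 ± 0.20, Plcd1, a phospholipase C, 1.11 ± 0.25, and Nfkbia, taken up below, 0.80 ± 0.17. The groups did not overlap for any of these 10 genes, and DESeq2 called all 10, with adjusted p from 0.00156 to 0.0221. Gstp1 has 2 near copies elsewhere in the genome, and Rab20 and Sh3gl1 overlap exons of a gene on the opposite strand. Whether counting used strand was not given in the sources used here, so those values are uncertain. The same overlap holds for other genes described below, among them H2-DMa, Nfkb2, Nfkbib, Myd88, Cxcl16, Irf5, Cd274 and Csf1r.

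On the lower side the smallest p belonged to Atp6v0e, a membrane subunit of the proton pump that acidifies lysosomes (chr17:26663231-26699647). It measured 255, 229 and 258 CPM in PBS and 172, 178 and 152 CPM in 1xLPS. The 3 1xLPS libraries were close to each other and all below PBS, with a log2 fold change of -0.57 ± 0.13, -0.42 with the GC correction, and a DESeq2 adjusted p of 0.00768. Scarb2, a lysosomal membrane protein that carries glucocerebrosidase, measured 179, 167 and 167 CPM against 89.4, 142 and 114 CPM (-0.57 ± 0.15). Lair1, an inhibitory receptor for collagen with 2 near copies elsewhere in the genome, measured 62.6, 67.0 and 59.1 CPM against 31.9, 48.8 and 41.0 CPM (-0.63 ± 0.15; DESeq2 adjusted p 0.0472). Gcnt1, a glycosyltransferase that builds branched O-glycans, measured 44.5, 47.9 and 40.4 CPM against 23.2, 33.2 and 22.1 CPM (-0.75 ± 0.18). All 4 genes were separate between groups, and in the last 3 the second 1xLPS library was the nearest to PBS.

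The remaining genes of the lower side spanned log2 fold changes of -0.59 to -1.11. Tm4sf19, a tetraspanin-like membrane protein, measured 16.4, 16.5 and 22 CPM in PBS and 10.4, 10.5 and 9.28 CPM in 1xLPS (-0.85 ± 0.21), and -0.97 with the GC correction. Mfsd7b, named Flvcr1 in current annotation and encoding a haem and choline transporter, gave -0.59 ± 0.15 and Efr3b -0.68 ± 0.19; both overlap exons on the opposite strand. A630033H20Rik, named P2ry10b in current annotation, gave -0.998 ± 0.24, and 2700089E24Rik, named Smim10l1, -0.65 ± 0.17. The pseudogene Tdpx-ps1 gave -1.11 ± 0.30, and its 1 near copy elsewhere leaves its counts uncertain.

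**Figure D2:**
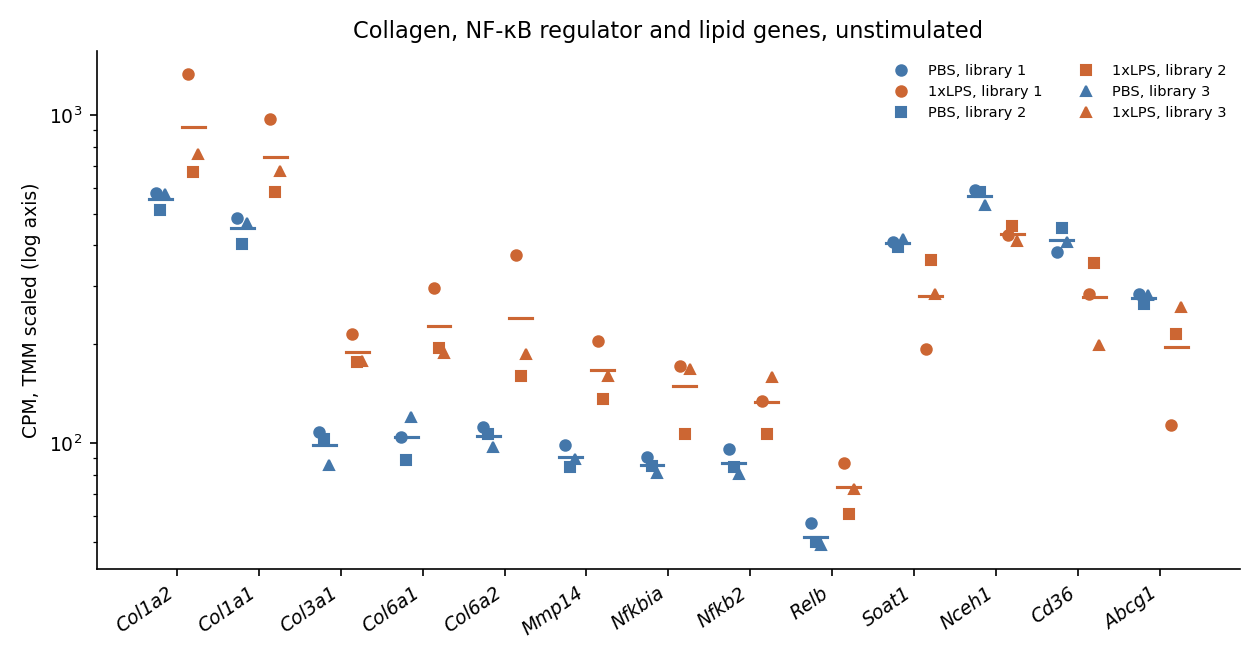
CPM (TMM scaled, log axis) of single genes in the 3 PBS and the 3 1xLPS unstimulated libraries, 1 symbol per library. For Mmp14 the 1xLPS libraries lie between 136 and 205 CPM and the PBS libraries between 84.5 and 98.2 CPM.

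Of the gene lists, the one for antigen presentation on MHC class II and costimulation stood furthest from the median of all genes. MHC class II molecules are αβ pairs that show peptides from ingested material to CD4+ T cells; the invariant chain CD74 guides them to endosomes, the H2-DM proteins load the peptide, and the co-activator CIITA switches all of these genes on. Of 16 list members 13 were tested, 0 were called, 7 lay wholly higher in 1xLPS and 1 wholly lower, and the same 7 and 1 had an unadjusted p under 0.05. The list's median log2 fold change was 0.61, against 0.01 over all genes, and 0.47 with the GC correction. It stayed between 0.45 and 0.75 when any single 1xLPS library was left out. The summed level of the list was 999.3, 822.9 and 783.6 CPM in PBS and 1492, 1273 and 1705 CPM in 1xLPS, so even the lowest 1xLPS library lay above the highest PBS library.

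The region just upstream of class II genes carries conserved elements on which CIITA assembles, of which the Y box, bound by NF-Y, has the core TGATTGG. The 250 bases before the RefSeq start (GRCm38.p6) are shown for the 3 genes that had a window in the table used and held that core, since they let the shared arrangement be seen. Capitals mark the Y box and, upstream of it, the palindrome TGACGTCA (the later of the 2 longest self-complementary runs, 8 bases each, in this window) in H2-Aa (chr17:34287824-34288073, minus strand) or the longest run common to H2-Eb1 (chr17:34305617-34305866, plus strand) and H2-DMb1 (chr17:34152941-34153190, plus strand).
H2-Aa: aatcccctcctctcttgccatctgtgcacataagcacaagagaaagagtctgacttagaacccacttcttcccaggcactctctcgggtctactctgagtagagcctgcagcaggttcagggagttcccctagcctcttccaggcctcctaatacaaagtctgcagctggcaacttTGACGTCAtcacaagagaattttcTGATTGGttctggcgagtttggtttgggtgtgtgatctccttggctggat
H2-Eb1: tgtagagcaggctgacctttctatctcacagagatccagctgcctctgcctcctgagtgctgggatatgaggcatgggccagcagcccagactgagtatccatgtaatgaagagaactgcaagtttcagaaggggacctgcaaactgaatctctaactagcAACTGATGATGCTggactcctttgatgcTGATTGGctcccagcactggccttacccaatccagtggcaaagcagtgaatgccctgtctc
H2-DMb1: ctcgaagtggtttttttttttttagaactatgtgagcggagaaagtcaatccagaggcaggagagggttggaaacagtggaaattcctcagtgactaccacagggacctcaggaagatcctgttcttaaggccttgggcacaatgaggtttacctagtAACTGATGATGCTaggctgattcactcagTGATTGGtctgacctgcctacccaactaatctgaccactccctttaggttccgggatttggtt
The Y box core was found on either strand in 7.23% of 32851 windows of that length, and the palindrome, which reads as a cyclic-AMP response element, in 1.55%. The run AACTGATGATGCT was found in 2 windows (0.00609%), those from which it was taken. It ended 15 bases before the Y box in H2-Eb1 and 16 bases before it in H2-DMb1, and the palindrome ended 16 bases before the Y box in H2-Aa. Of the 7 class II genes that lay wholly higher, 4 had a window in the table, and H2-DMa was the one without this core.

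The gene for the master co-activator itself, Ciita (chr16:10480059-10528418), gave the largest difference of the list from a low level. It measured 2.75, 1.57 and 2.30 CPM in PBS and 3.95, 5.67 and 9.80 CPM in 1xLPS. Groups were separate, and the 1xLPS libraries spread more widely than the PBS libraries. The log2 fold change was 1.52 ± 0.37 (95% interval 0.73 to 2.30), the adjusted p 0.346 by edgeR's quasi-likelihood test with Benjamini-Hochberg adjustment and 0.0382 by DESeq2, and the value with the GC correction 1.37. Ciita overlaps an exon of Dexi on the opposite strand.

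The chains of the classical class II molecules followed the same order. H2-Eb1, the Eβ chain, measured 46.4, 35.6 and 29.1 CPM in PBS and 79.1, 68.8 and 91.0 CPM in 1xLPS (log2 fold change 1.10 ± 0.38). H2-Ab1, the Aβ chain (chr17:34257689-34269419), measured 108, 70.8 and 49.0 CPM against 172, 128 and 162 CPM (1.02 ± 0.37), and H2-Aa, the Aα chain, 94.0, 59.1 and 49.7 CPM against 128, 111 and 144 CPM (0.92 ± 0.37). In all 3 genes PBS library 1 was the highest of the controls and 1xLPS library 2 the lowest of its group, and a gap remained between them. Cd74, the most abundant member, measured 626, 523 and 533 CPM against 981, 833 and 1169 CPM (0.83 ± 0.32). The peptide-loading genes were also separate, with H2-DMa at 12.5, 11.3 and 11.2 CPM against 19.4, 14.3 and 25.2 CPM (0.74 ± 0.29) and H2-DMb1 at 23.3, 22.1 and 24.3 CPM against 43.2, 28.7 and 34.9 CPM (0.61 ± 0.24). H2-DMb2, a near copy of H2-DMb1 with which it may exchange reads, overlapped between groups (0.29 ± 0.31). Correction for GC content left the log2 fold changes of the 6 separate genes between 0.47 (H2-DMb1) and 1.02 (H2-Eb1), and that of H2-DMb2 at 0.20.

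The member lying wholly lower was Cd274, which encodes the inhibitory ligand PD-L1. It measured 69.1, 81.7 and 67.6 CPM in PBS and 50.2, 64.0 and 49.9 CPM in 1xLPS, a log2 fold change of -0.41 ± 0.18 and -0.28 with the GC correction. The costimulatory genes were level and overlapped between groups, so the list's higher values lay in its class II genes. Without the GC correction, Cd40 gave 0.02 ± 0.35, Cd80 0.05 ± 0.36, Cd86 0.002 ± 0.26 and Icosl -0.04 ± 0.25. Their means in PBS lay between 2.39 (Cd80) and 5.46 CPM (Icosl). Professional antigen-presenting cells of other lineages carry class II as well, so their markers were read in the same libraries. Of 7 tested dendritic cell markers 0 were separate, with a median log2 fold change of 0.0, and of -0.1 with the GC correction. The summed level of the list was 239 to 325 CPM in PBS and 243 to 320.0 CPM in 1xLPS. The highest value was that of Batf3, a transcription factor of dendritic cells, at 1.00 ± 0.46 (unadjusted p 0.0426 by edgeR's quasi-likelihood test) from 0.526 to 0.861 CPM in PBS and 0.810 to 2.22 CPM in 1xLPS. Of 3 tested B cell markers 0 were separate and all 3 were positive, with a median of 0.16; Ighm, the immunoglobulin heavy chain, lay at 6.22 to 13.5 CPM in PBS and 8.17 to 13.4 CPM in 1xLPS. Of the defining markers, the dendritic cell genes Flt3 and Xcr1 and the B cell gene Cd79a reached at most 0.422 CPM in any of the 6 libraries, and Zbtb46 lay between 0.585 and 0.858 CPM in PBS and between 0.422 and 1.06 CPM in 1xLPS. The B cell gene Cd79b lay between 0.429 and 0.789 CPM in PBS and between 0.296 and 0.810 CPM in 1xLPS. In bulk RNA, more cells of a type and more RNA per cell cannot be told apart.

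**Figure D3:**
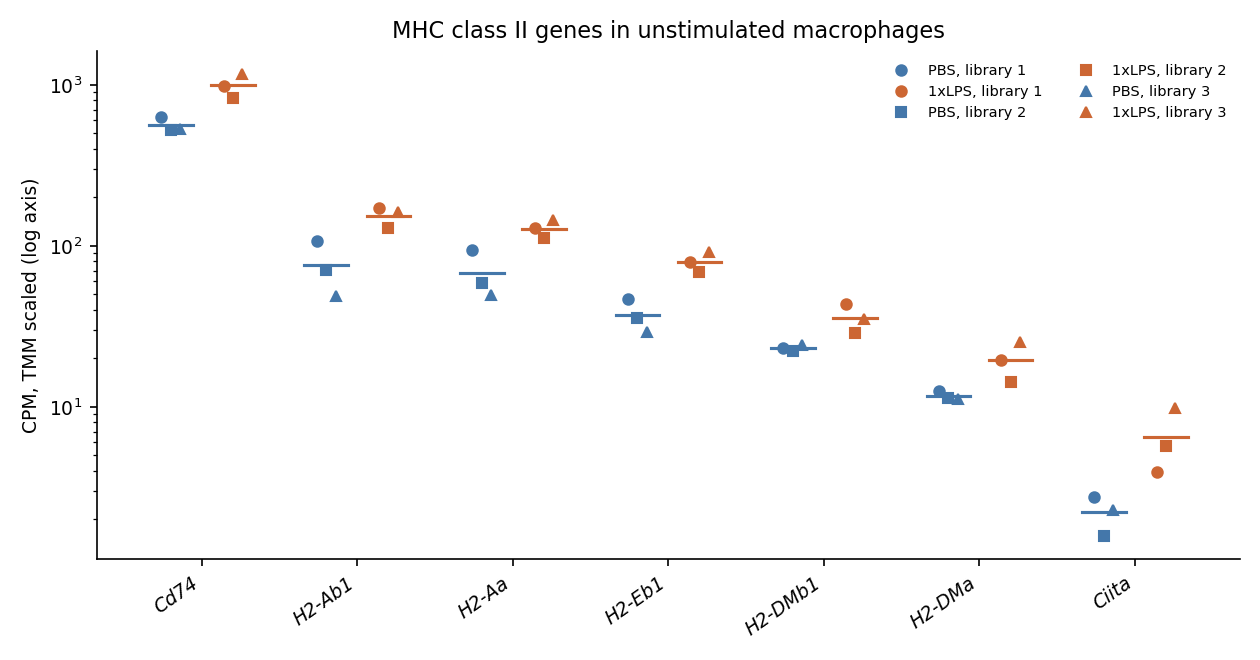
CPM (TMM scaled, log axis) of MHC class II genes in the 3 PBS and 3 1xLPS unstimulated libraries, 1 symbol per library. For Ciita the PBS libraries lie between 1.57 and 2.75 CPM and the 1xLPS libraries between 3.95 and 9.80 CPM; for Cd74 the ranges are 523 to 626 and 833 to 1169 CPM.

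Class I presentation, which shows peptides of the cell's own proteins, lay nearer to the background. Of its 20 members, 3 were wholly higher and 1 wholly lower, and the median log2 fold change of 0.25 came to 0.08 with the GC correction. Its most abundant genes were level between groups. H2-D1, a class I heavy chain with a near copy, measured 3939, 4755 and 4199 CPM in PBS and 3997, 4194 and 4865 CPM in 1xLPS (0.02 ± 0.17), and H2-K1, another heavy chain, 1564, 1557 and 1064 CPM against 1247, 1414 and 1437 CPM (-0.03 ± 0.19). They came to -0.16 and -0.17 with the GC correction.

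Several genes of NF-κB signalling and its inhibitors had higher values in 1xLPS. No list was fixed for them, and those named beside Nfkbia were picked after their values were seen. NF-κB dimers wait in the cytoplasm bound to IκB proteins; a signal destroys the IκB, the dimer enters the nucleus, and it induces the IκB genes again. Among 28 tested members of the list of negative feedback and tolerance regulators (30 entries), 4 lay wholly higher and 1 wholly lower, while 8 were higher and 1 lower at an unadjusted p under 0.05. The median of the list was 0.13, and 0.04 with the GC correction. Nfkbia, encoding IκBα (chr12:55489410-55492647), measured 90.5, 84.8 and 81.2 CPM in PBS and 172, 106 and 168 CPM in 1xLPS. The PBS libraries were within 10 CPM of each other and all below the lowest 1xLPS library, the second. The log2 fold change was 0.80 ± 0.17, the adjusted p 0.346 by edgeR's quasi-likelihood test with Benjamini-Hochberg adjustment and 0.00768 by DESeq2, and the value with the GC correction 0.66.

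The other inhibitors and subunits picked were on the same side. Nfkb2, encoding the p100 precursor of the non-canonical pathway, measured 95.6, 84.2 and 80.1 CPM in PBS and 134, 107 and 159 CPM in 1xLPS (log2 fold change 0.62 ± 0.16, DESeq2 adjusted p 0.0499), with 0.33 after the GC correction. Its partner Relb measured 56.7, 49.9 and 48.6 CPM against 86.7, 60.9 and 72.3 CPM (0.50 ± 0.14), and Nfkbie, encoding IκBε, 32.9, 37.8 and 28.7 CPM against 45.7, 38.7 and 48.4 CPM (0.42 ± 0.14). All 3 were separate, Nfkbie by less than 1 CPM. Nfkbib, encoding IκBβ, gave 0.75 ± 0.19 with PBS library 1 at 30.8 CPM just above 1xLPS library 2 at 30.2 CPM, so the groups overlapped. Nfkb1, encoding p105 and p50, was separate at 0.28 ± 0.16. The cytokine-signalling inhibitor Socs3 measured 9.06, 12.4 and 10.0 CPM against 22.5, 12.3 and 22.98 CPM (0.86 ± 0.22), with its second 1xLPS library inside the PBS range. Il1rn, the antagonist of the IL-1 receptor, was separate at 0.42 ± 0.16, and the interferon-related factor Irf1 at 0.53 ± 0.16. With the GC correction the values were 0.28 for Relb, 0.24 for Nfkbie, 0.44 for Nfkbib, 0.43 for Nfkb1, 0.55 for Socs3 and 0.66 for Il1rn. The 2 most abundant members of the feedback list were level, Inpp5d, encoding the phosphatase SHIP1, at 0.01 ± 0.17 (-0.12 with the GC correction) and the lipid receptor Trem2 at -0.22 ± 0.21.

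NF-κB dimers bind decameric κB sites. The 250 bases before the start are shown for Nfkbia (chr12:55492648-55492897, minus strand) and for the first of 3 starts of Nfkb2 (chr19:46304487-46304736, plus strand), a pair chosen, after values and sequences were seen, from the 4 of 6 NF-κB genes with a window. Capitals mark AATTCCCC, the longest run that both windows hold.
Nfkbia: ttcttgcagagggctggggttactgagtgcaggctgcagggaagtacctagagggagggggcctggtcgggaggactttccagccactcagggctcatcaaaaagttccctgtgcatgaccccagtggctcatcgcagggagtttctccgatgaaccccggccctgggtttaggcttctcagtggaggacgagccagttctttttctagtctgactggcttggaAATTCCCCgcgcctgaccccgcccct
Nfkb2: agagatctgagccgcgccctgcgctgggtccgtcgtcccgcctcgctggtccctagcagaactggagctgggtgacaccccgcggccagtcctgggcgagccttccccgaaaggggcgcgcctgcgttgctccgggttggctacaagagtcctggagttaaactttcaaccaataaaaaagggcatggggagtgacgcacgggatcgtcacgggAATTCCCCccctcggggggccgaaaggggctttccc
The run was found on either strand in 241 of 32851 windows (0.734%), and in neither of the other 2 NF-κB genes with a window. In Nfkbia it lay 19 to 26 bases before the start, and in Nfkb2 29 to 36 bases before it. A match describes the letters and not a bound site.

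Upstream of NF-κB, genes for sensing LPS lay on both sides, 17 with a positive and 18 with a negative log2 fold change. Of 35 tested members of the list for LPS sensing and Toll-like receptor signalling, 6 lay wholly higher and 2 wholly lower. At an unadjusted p under 0.05, 5 were higher and 0 lower. The median was -0.03, and 0.03 with the GC correction. Tlr4, the receptor itself, measured 39.4, 48.9 and 41.1 CPM in PBS and 21.5, 49.95 and 27.4 CPM in 1xLPS (log2 fold change -0.38 ± 0.23), with the second 1xLPS library above all controls and the other 2 below them. Without that library the value was -0.83, and with the GC correction -0.12. The co-receptor Cd14 measured 446, 494 and 436 CPM against 870.0, 348 and 481 CPM (0.31 ± 0.31), and it turned to -0.15 without the first 1xLPS library. The adaptor Myd88 at 66.5, 64.9 and 55.6 CPM against 76.6, 70.1 and 83.3 CPM (0.30 ± 0.14) and the receptor for bacterial lipoproteins Tlr2 at 127, 111 and 106 CPM against 141, 143 and 139 CPM (0.30 ± 0.14) were separate. Irf5, a transcription factor downstream of MyD88, overlapped at 0.26 ± 0.19. Cd14 came to 0.17, Myd88 to 0.17 and Irf5 to 0.07 with the GC correction.

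Cytokine and chemokine genes differed widely in level at rest. Tnf, the early macrophage cytokine, measured 21.5, 23.6 and 21.6 CPM in PBS and 27.2, 20.1 and 22.98 CPM in 1xLPS, a log2 fold change of 0.07 ± 0.27 whose 95% interval ran from -0.50 to 0.64 and which came to -0.025 with the GC correction. Il1b lay at 1.08 ± 0.358 CPM (SD, n = 3) in PBS and 1.35 ± 0.539 CPM in 1xLPS, Il6 at no more than 0.107 CPM in any library, and Nos2, encoding inducible nitric oxide synthase, at no more than 0.146 CPM. At these depths no difference in Il6 or Nos2 was detectable. Irg1, named Acod1 in current annotation and encoding the enzyme that makes itaconate, was separate at 4.36, 4.58 and 4.16 CPM against 6.47, 5.61 and 5.90 CPM (0.46 ± 0.26), and the interferon-induced chemokine gene Cxcl10 overlapped (0.65 ± 0.44). Of 32 tested members of the cytokine and chemokine list, 3 lay wholly higher, 0 wholly lower, and the median was 0.25, or 0.35 with the GC correction. Single values ran from -2.62 to 3.42. The filter counted all 18 libraries, so genes near the detection limit at rest, such as Il6, were tested as well. On log2(CPM + 1), where such genes weigh less, the list's medians above the PBS mean were 0.19, 0.068 and 0.04 in 1xLPS libraries 1, 2 and 3.

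The 3 separate members were chemokines. Cxcl16, a membrane-bound chemokine and scavenger receptor, measured 276, 229 and 239 CPM in PBS and 348, 293 and 323 CPM in 1xLPS (0.37 ± 0.14). Ccl6 measured 24.2, 26.0 and 26.5 CPM against 28.1, 48.9 and 36.1 CPM (0.56 ± 0.24), and Ccl9 72.5, 70.5 and 69.2 CPM against 87.9, 107 and 86.7 CPM (0.41 ± 0.20). Unlike most separate genes, Ccl6 and Ccl9 were highest in the second 1xLPS library, and both were larger with the GC correction, at 0.67 and 0.64. Csf1, the growth factor on which macrophages depend, was among the abundant members, at 142 to 226 CPM in PBS and 152 to 284 CPM in 1xLPS, and overlapped at 0.23 ± 0.29 (0.064 with the GC correction).

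The same 2 arms were also sequenced after LPS in the dish, in other libraries. In that comparison, too, 0 of 14158 genes were called by edgeR's quasi-likelihood test with Benjamini-Hochberg adjustment (0% in each direction; 11 called by DESeq2). At an unadjusted p under 0.05, 680 genes (4.8%) were higher and 405 (2.86%) lower, 1085 (7.66%) in all, and the groups did not overlap for 885 higher (6.25%) and 817 lower (5.77%). The difference of the 2 differences, tested in the same fit as an interaction, was called for 0 genes (0%), with 1154 (8.15%) at an unadjusted p under 0.05, a smallest adjusted p of 0.35 and 34 calls by DESeq2. Nfkbia stood at a mean of 85.5 ± 4.72 CPM (SD, n = 3) in PBS and 149 ± 36.9 CPM in 1xLPS at rest, and at 940.4 ± 102 CPM and 714 ± 47.8 CPM after LPS. Its log2 fold change was 0.80 ± 0.17 at rest and -0.40 ± 0.17 after LPS, an interaction of -1.19 ± 0.25 with an adjusted p of 0.35 by edgeR's quasi-likelihood test with Benjamini-Hochberg adjustment. Irf1 gave 0.53 ± 0.16 at rest and -0.36 ± 0.16 after LPS (interaction -0.88 ± 0.23), Socs3 0.86 ± 0.22 and -0.43 ± 0.21 (-1.29 ± 0.31), and Rab20 0.73 ± 0.14 and -0.33 ± 0.14 (-1.06 ± 0.20). These 4 genes were picked, after their values were seen, as examples where the arm with the higher mean at rest had the lower mean after LPS. Other named genes did the same, among them Il1rn, Myd88, Nfkb1, Nfkb2, Relb, Nfkbie, Nfkbib, Cxcl16, Ccl9 and Irg1. Others did not, among them Cd74, Col1a1 and Col3a1. The share of all genes with such a switch was not counted. The groups after LPS were separate for Nfkbia, Irf1 and Rab20 and overlapped for Socs3.

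Tnf and Il1b overlapped between arms at rest and after LPS. Tnf had means of 22.3 and 23.4 CPM at rest and of 3654 ± 1232 CPM in PBS and 1779 ± 714 CPM in 1xLPS (SD, n = 3) after LPS (log2 fold change -1.04 ± 0.27), an interaction of -1.11 ± 0.38. Il1b gave 0.31 ± 0.56 at rest and -1.17 ± 0.41 after LPS, from 219 ± 139 and 97.2 ± 34.0 CPM. Over the 32 cytokine and chemokine genes the median was 0.25 at rest, with the limit of low levels given above, and -0.66 after LPS. After LPS, 2 were higher and 11 lower at an unadjusted p under 0.05. The summed level of the list was then 15155, 13618 and 7145 CPM in PBS and 8538, 7995 and 4031 CPM in 1xLPS, so the groups overlapped. The class II list had medians of 0.61 at rest and 0.34 after LPS, where 0 of 13 tested members had an unadjusted p under 0.05. Its summed level after LPS was 1802, 1416 and 1159 CPM in PBS and 1049, 1937 and 2495 CPM in 1xLPS, so the groups overlapped. Cd74 gave 0.83 ± 0.32 at rest and 0.67 ± 0.32 after LPS, with overlapping groups after LPS. Ciita did not keep its size, at 1.52 ± 0.37 at rest and -0.17 ± 0.36 after LPS (interaction -1.69 ± 0.52, adjusted p 0.411 by edgeR's quasi-likelihood test with Benjamini-Hochberg adjustment).

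**Figure D4:**
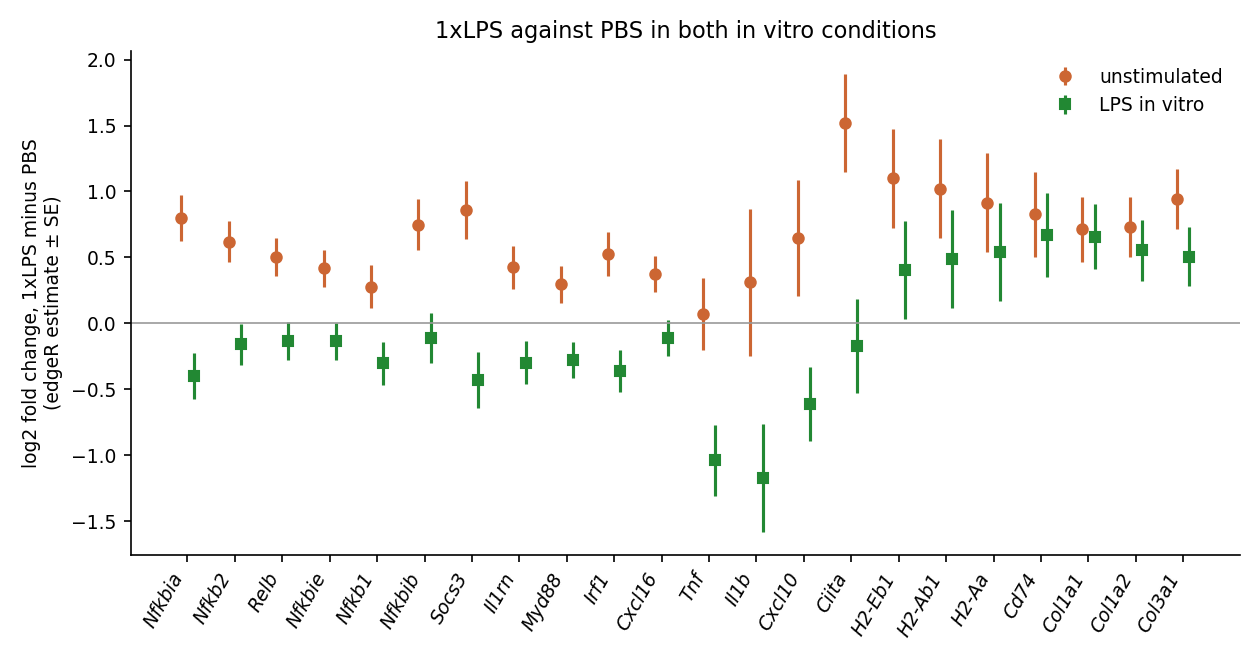
Log2 fold change of 1xLPS minus PBS (edgeR estimate, bars ± SE) for single genes in unstimulated cells (circles) and after LPS in vitro (squares), 3 libraries per group. Nfkbia lies at 0.80 at rest and -0.40 after LPS, Tnf at 0.07 and -1.04, and Cd74 at 0.83 and 0.67.

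Genes of connective tissue were also higher in 1xLPS. Fibroblasts and other stromal cells of the marrow make fibrillar collagens I, III and V and the beaded-filament collagen VI, and such cells can persist in marrow cultures. Of 20 tested members of the stromal and fibroblast list (23 entries), 8 lay wholly higher and 0 wholly lower, the median was 0.48 and, with the GC correction, 0.43. The summed level of the list was 5733, 5419 and 5966 CPM in PBS and 11664, 6399 and 8071 CPM in 1xLPS. Col3a1 measured 108, 103 and 85.7 CPM in PBS and 215, 176 and 178 CPM in 1xLPS (log2 fold change 0.94 ± 0.23, DESeq2 adjusted p 0.0245). Col1a1 measured 485, 404 and 469 CPM against 971, 582 and 675 CPM (0.71 ± 0.25), and Col1a2 579, 513 and 574 CPM against 1331, 669 and 763 CPM (0.73 ± 0.23). The groups were separate for all 3, and the first 1xLPS library was the highest in each.

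Further collagen and mural-cell genes were smaller in difference. Col6a3 gave 0.62 ± 0.29, Col5a1 0.45 ± 0.23, Col5a2 0.34 ± 0.23 and the PDGF receptor gene Pdgfrb 0.51 ± 0.24, all with separate groups. Vim, the intermediate filament gene that macrophages also express, overlapped at 0.69 ± 0.29, as did the smooth-muscle actin gene Acta2 at 0.68 ± 0.28. Timp1, an inhibitor of metalloproteases, measured 115, 96.5 and 142 CPM in PBS and 672, 129.8 and 174 CPM in 1xLPS; its 1.47 ± 0.49 came to 0.37 without the first 1xLPS library. Without that library the list's median was 0.34, and the log2 fold changes were 0.84 for Col3a1, 0.88 for Col6a1, 0.72 for Col6a2, 0.47 for Col1a1, 0.37 for Col1a2, 0.31 for Vim and 0.33 for Acta2. Col1a1 came to 0.42 and Col5a1 to 0.21 with the GC correction. The fibroblast markers Dcn and Pdgfra lay at 35.9 to 41.0 and 10.5 to 11.5 CPM in PBS and at 35.9 to 64.2 and 9.07 to 21.98 CPM in 1xLPS, overlapping between groups. Whether the number of stromal cells in the cultures differed was not tested.

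The 4xLPS arm at rest shares its PBS control libraries with this comparison, so its values are only set beside it. The stromal list had a median of 0.48 in 1xLPS and 0.87 in 4xLPS, and Col6a1 gave 1.12 ± 0.21 and 0.96 ± 0.21, Col3a1 0.94 ± 0.23 and 0.99 ± 0.23, and Mmp14 0.88 ± 0.16 and 0.74 ± 0.16. The class II list had a median of 0.61 in 1xLPS and 0.04 in 4xLPS, with Cd74 at 0.83 ± 0.32 and 0.04 ± 0.32 and Ciita at 1.52 ± 0.37 and 0.28 ± 0.38. Nfkbia stood at 0.80 ± 0.17 and 0.08 ± 0.17, and Nfkb2 at 0.62 ± 0.16 and 0.11 ± 0.16. The direct difference, 4xLPS minus 1xLPS, was not called for any of these genes by edgeR's quasi-likelihood test with Benjamini-Hochberg adjustment, with adjusted p of 0.355 for Nfkbia and 0.82 for Mmp14.

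Genes of lipid handling leaned the other way. Macrophages take up oxidised lipoproteins through CD36, store cholesterol as esters made by SOAT1, release it from those esters through NCEH1 and export it through ABCG1. Of 22 genes in the list of cholesterol efflux and lipid handling, 0 lay wholly higher and 7 wholly lower, with a median of -0.14, and of -0.09 with the GC correction. Cd36 measured 383, 452 and 409.9 CPM in PBS and 284, 354 and 199 CPM in 1xLPS (log2 fold change -0.57 ± 0.18), which came to -0.23 with the GC correction. Soat1 measured 410.5, 395 and 418 CPM against 194, 361 and 285 CPM (-0.54 ± 0.18), and Nceh1 590.1, 583 and 531 CPM against 431, 459.9 and 414 CPM (-0.39 ± 0.16). Abcg1 measured 284, 265 and 282 CPM against 114, 215 and 259 CPM (-0.50 ± 0.22), and -0.22 without the first 1xLPS library. All 4 were separate, and for Soat1 and Abcg1 the first 1xLPS library was the lowest. The transcription factor genes Nr1h3, encoding LXRα, at 0.60 ± 0.27 and Srebf1 at 0.36 ± 0.15 were on the higher side, both overlapping. They were picked after their values were seen and do not stand for all regulators of lipid genes. The 2 most abundant members, Apoe at -0.19 ± 0.31 and the phospholipid transfer protein gene Pltp at 0.13 ± 0.27, overlapped. With the GC correction Nceh1 came to -0.225, Nr1h3 to 0.36, Srebf1 to 0.075, Apoe to -0.43 and Pltp to -0.10; without the first 1xLPS library Soat1 came to -0.34 and Srebf1 to 0.20.

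**Figure D5:**
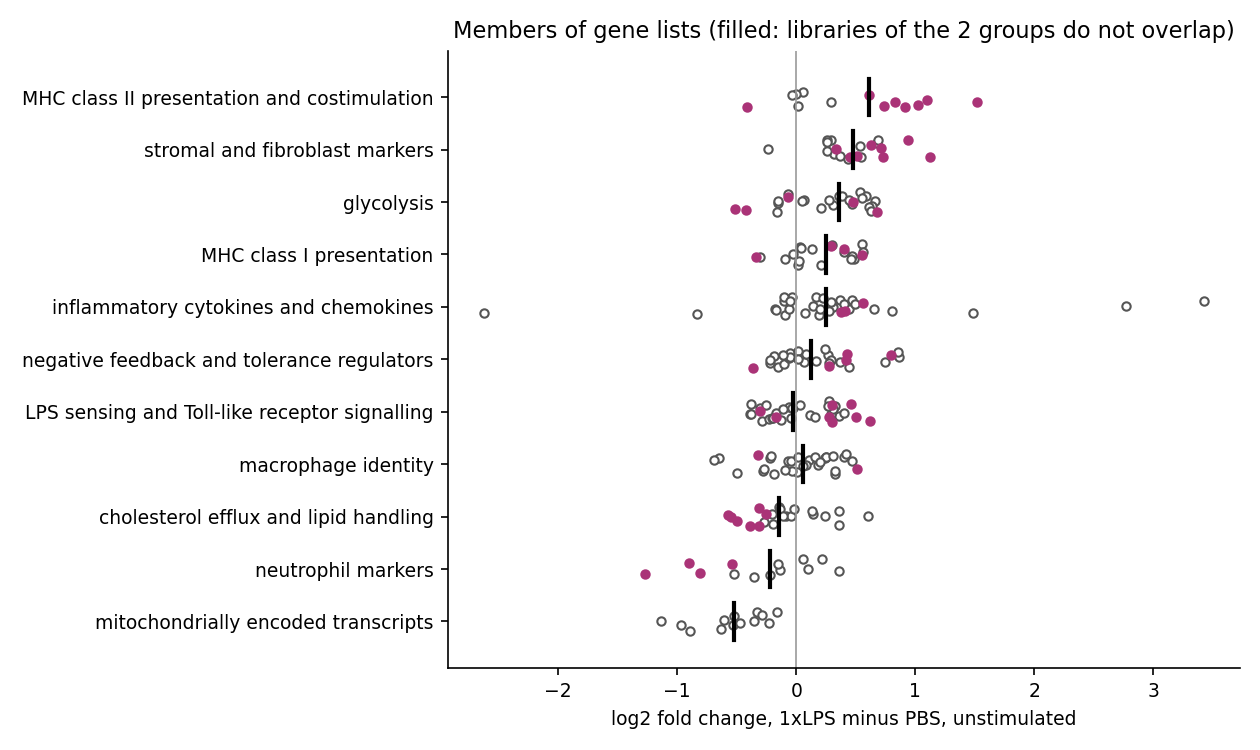
Log2 fold change of 1xLPS minus PBS in unstimulated cells (horizontal axis) for the tested members of gene lists (rows), 1 point per gene, filled where the libraries of the 2 groups do not overlap. The MHC class II list centres at 0.61 and the stromal list at 0.48, while lipid handling lies at -0.14 and macrophage identity at 0.06.

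Energy metabolism and housekeeping transcripts followed single libraries. Of 25 glycolysis genes, 2 lay wholly higher and 3 wholly lower; the median of 0.36 came to 0.07 without the first 1xLPS library and to 0.15 with the GC correction. Hk1, the hexokinase that opens the pathway, measured 137, 111 and 135 CPM in PBS and 209.8, 142 and 181 CPM in 1xLPS (0.48 ± 0.16), and Ldha, a lactate dehydrogenase with 4 near copies, 692, 523 and 658 CPM against 1316, 839.7 and 835 CPM (0.67 ± 0.25). Both were separate. Pkm, the pyruvate kinase gene and the most abundant member, measured 2307, 2261 and 3073 CPM against 5491, 2255 and 2662 CPM (0.45 ± 0.27), and Aldoa, an aldolase gene, overlapped at 0.64 ± 0.23. Without the first library Pkm turned to -0.05, Ldha came to 0.42 and Aldoa to 0.33. Hk1 came to 0.265, Pkm to 0.15 and Aldoa to 0.38 with the GC correction.

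The summed level of 29 ribosomal protein genes was 11787, 12667 and 12944 CPM in PBS and 25429, 10241 and 10801 CPM in 1xLPS. The first 1xLPS library alone was high, and the list's median of 0.34 became -0.18 without it. Rplp0, a protein of the ribosomal stalk with 4 near copies, gave 0.34 ± 0.28 and -0.14 without that library, and 0.20 with the GC correction. All 13 transcripts of the mitochondrial genome had a negative log2 fold change, with a median of -0.52, of -0.21 after the GC correction, and 0 with separate groups. Their summed level was 3455, 5032 and 4440 CPM in PBS and 3245, 4345 and 1790 CPM in 1xLPS, lowest in the third 1xLPS library. Mt-Cytb gave -0.52 ± 0.28, mt-Co1 -0.47 ± 0.31 and mt-Atp6, which overlaps its neighbours, -1.14 ± 0.39. Corrected for GC content, mt-Cytb came to -0.22 and mt-Co1 to -0.21; the median GC content of the 13 was 37.1%. After LPS in vitro the median of the same transcripts was 0.75. Their summed level was then 4069, 2729 and 3452 CPM in PBS and 4650, 2586 and 7352 CPM in 1xLPS. The groups overlapped, and the third 1xLPS library was the highest.

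Macrophage identity did not separate the arms. Of 31 tested genes of that list, 1 lay wholly higher and 1 wholly lower, with a median of 0.06, and of 0.01 with the GC correction. Csf1r, the receptor for the macrophage growth factor, measured 3255, 2405 and 2466 CPM in PBS and 3190.4, 2866 and 3588 CPM in 1xLPS (0.25 ± 0.19, and 0.097 with the GC correction). Lyz2, the myeloid lysozyme gene, measured 14440.0, 11653 and 13201 CPM against 5709, 15428 and 11228 CPM (-0.28 ± 0.26), low only in the first 1xLPS library, and the cathepsin gene Ctsb gave 0.02 ± 0.20 (0.034 with the GC correction). The other macrophage markers were present throughout, for example Emr1, named Adgre1 in current annotation, at 473 to 913 CPM over the 6 libraries.

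Among neutrophil markers, both calprotectin genes and the granule genes Camp and Ngp lay below PBS, while the other 9 markers tested overlapped. Of 13 tested neutrophil markers (18 entries) 0 lay wholly higher and 4 wholly lower. The median was -0.22, -0.68 without the first 1xLPS library and -0.4 with the GC correction. S100a9, a chain of calprotectin, measured 39.9, 43.4 and 57.2 CPM in PBS and 38.2, 23.3 and 18.3 CPM in 1xLPS (log2 fold change -0.81 ± 0.33), and its partner S100a8 11.9, 15.7 and 11.3 CPM against 10.1, 5.54 and 4.85 CPM (-0.90 ± 0.38). Both were separate by less than 2 CPM, with the first 1xLPS library nearest to PBS. The granule genes Camp, at 2.25 ± 0.155 CPM (SD, n = 3) against 0.905 ± 0.319 CPM (-1.27 ± 0.50), and Ngp (-0.54 ± 0.25) were also separate. The granule enzyme genes Mpo, at 3.16 to 4.43 CPM in PBS and 1.90 to 5.77 CPM in 1xLPS, and Elane, at 1.33 to 2.11 CPM and 0.827 to 1.69 CPM, overlapped. The defining marker Ly6g reached at most 0.0359 CPM, and the summed level of the list was 248 to 282 CPM in PBS and 218 to 254 CPM in 1xLPS, with Csf3r, a receptor gene that macrophages share, as the largest member at 86.7 to 110 CPM in PBS and 91.1 to 150.01 CPM in 1xLPS (0.21 ± 0.18, and 0.081 with the GC correction). After LPS in vitro the median of the list was -0.58, with Ngp at -1.10 ± 0.25.

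Pooled over their entries, the other 29 lists lay near the background. They cover interferon responses, the tricarboxylic acid cycle and respiratory chain, cholesterol synthesis, the cell cycle, stress responses, lysosomes and markers of other blood and marrow cells, and hold 439 tested entries, of which 33 (7.52%) lay wholly higher and 27 (6.15%) wholly lower. In the 22 of them with at least 5 tested genes, medians ran from -0.35 to 0.21. Single lists had larger shares. Of 12 colony-stimulating factor and receptor genes, 3 lay wholly higher and 2 wholly lower. Of 17 genes for matrix proteases and inhibitors, 3 lay wholly higher and 1 wholly lower. Type I interferon genes had a median of -0.1, and of -0.05 with the GC correction. Interferon-gamma-inducible genes had a median of 0.17, a list that shares Ciita and Irf1 with the results above.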

How the data were processed

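RNA-seq libraries of total RNA, enriched for mRNA and sequenced on an Ion Proton, were processed in Torrent Suite 5.12 per the labels' protocols: reads were aligned to the mouse genome (mm10) with TopHat2, unmapped reads with Bowtie2, and FPKM computed with Cufflinks. The values used here are the read counts per gene symbol that the authors deposited, whole numbers with different totals per library although the sheet's name reads RPM; the counting tool, annotation and strand setting were not given in the sources used here. The authors also deposited a table with a verdict in words on each pair of groups.

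Counts were fitted as deposited with edgeR 4.0.16 (R 4.3.3), 1 mean per group over all 18 libraries and 12 residual degrees of freedom, with TMM scaling, 14158 of 43280 symbols kept (at least 1 CPM in at least 3 libraries), the quasi-likelihood test and Benjamini-Hochberg adjustment over all genes tested. The typical variation between libraries (biological coefficient of variation) was 23.9%. DESeq2 1.42.0, limma 3.58.1 and the other alternatives are given in the closing section. The scripts were tested on simulated data. Transcript GC content came from the longest GENCODE M21 transcript of 13500 genes (95.4%), coordinates from the same annotation (GRCm38, the assembly of mm10) and promoter windows from RefSeq. Near copies are other genes at 95% identity or more over at least 200 bases.

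Named are the 10 genes a direction with the smallest p and at least 5 CPM in the higher group, a fixed panel of LPS-response and macrophage genes, up to 2 of the most abundant genes of each list described, and further list members picked after their values were seen. The members and lists were chosen with earlier results of these data known. The panel genes Il10, Ifnb1 and Arg1 did not pass the filter. Pairing of the replicate numbers was checked by correlating deviations from the group means: r was 0.139, 0.288 and -0.299 for numbers 1 to 3, so the numbers were not used to pair libraries. Intervals and the limit of 3 counts cover counting or library spread only, as reads carry no molecular identifiers.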

Additional observations from a re-analysis of the deposited data

How the results depend on the processing

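The count of 0 genes called in unstimulated cells moved to 28 with DESeq2 (26 higher), 159 without a filter on low counts (107 higher) and 556 with limma voom and sample quality weights (324 higher). Leaving out single libraries gave 0 to 1593 calls; only the fit without 1xLPS library 2 gave any, and with the GC correction it gave 0 (smallest adjusted p 0.0512). After LPS in vitro the count of 0 moved to 93 without the filter and to 11 with DESeq2, and for the difference between in vitro conditions to 144 without the filter, 34 with DESeq2 and 1 with voom and quality weights. The cause was not tested. Each other alternative gave 0 calls in every comparison it was run for. Among them, run for all 3 comparisons, were the GC correction and the replicate block. For unstimulated cells the replicate block gave 0 calls and 1724 genes at an unadjusted p under 0.05, and 0 calls with the GC correction. Reading the arm from the treatment tag, run for unstimulated cells, also gave 0 calls (1352 genes at an unadjusted p under 0.05). That setting took as control the columns whose names give the other LPS-treated arm, so it was a different comparison. It cannot show whether the 0 calls against PBS depend on the arm labels.

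Of 100 genes with 21 alternatives, 82 kept the sign of their log2 fold change in each, and the other 18 had sizes of at most 0.45. With the GC correction Tnf came to -0.025, Il6 to 0.034, H2-D1 to -0.162, Pltp to -0.102 and Inpp5d to -0.118; with the replicate block added, Tnf came to -0.034, H2-D1 to -0.164, Pltp to -0.111 and Inpp5d to -0.116. With the GC correction and without 1xLPS library 2, H2-D1 came to -0.285, C3ar1 to 0.01, Csf2rb to -0.059, Csf3r to -0.007, Pltp to -0.124, Inpp5d to -0.139 and Ctsb to -0.034. With library totals in place of TMM, H2-D1 came to -0.036, Inpp5d to -0.046 and Ctsb to -0.017. Without the filter H2-D1 came to -0.012, Inpp5d to -0.007 and Ctsb to -0.008, with a stricter filter Inpp5d came to -0.0, and with the replicate block in the 2 groups alone Ctsb came to -0.007. With voom and quality weights Trem2 came to 0.063, H2-K1 to 0.075, Csf1 to -0.091, Apoe to 0.075 and Il6 to 0.695. Without the libraries 1xLPS 1 (unstimulated) and 1xLPS 3 (stimulated), Il6 came to 0.427, Lyz2 to 0.023, Tnf to -0.061, Csf1 to -0.105, H2-K1 to 0.029, Rplp0 to -0.141, Pkm to -0.056, Cd14 to -0.151 and Inpp5d to -0.024. Leaving out 1 library at a time gave ranges of -0.054 to 0.176 for Tnf, -1.099 to 0.431 for Il6, -0.113 to 0.629 for Il1b, -0.146 to 0.56 for Cd14, -0.1 to 0.469 for Csf1, -0.065 to 0.111 for Inpp5d, -0.051 to 0.679 for Pkm, -0.006 to 0.257 for Pltp, -0.629 to 0.025 for Lyz2, -0.074 to 0.179 for Ctsb, -0.069 to 0.097 for H2-D1, -0.192 to 0.06 for H2-K1 and -0.136 to 0.568 for Rplp0. Of 34 list medians, the GC correction moved 6 by more than the spread between libraries, leaving out 1xLPS library 1 moved 8, and the replicate block 0.

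The 3 libraries a group limit precision, as does the third 1xLPS library, whose 3-count level of 0.323 CPM was the highest of the 6. Il6 and Nos2 lay under that level in the 6 libraries, and values near 1 CPM, such as those of Il1b and Camp, rest on few reads.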

Other observations

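Colony-stimulating factors with their receptors and the complement and coagulation system, both among the lists summarised together above, are given here by their members with separate groups; they were picked after their values were seen, and none was called. Of 12 genes of the former list 3 lay wholly higher and 2 wholly lower, with a median of 0.21, and of 0.05 with the GC correction. Il3ra, a receptor chain for interleukin 3, measured 68.9, 68.7 and 52.3 CPM in PBS and 133, 82.2 and 141 CPM in 1xLPS (log2 fold change 0.90 ± 0.32), and 0.69 ± 0.32 after LPS in vitro. Csf2rb2, a mouse beta chain for the same cytokine, measured 532, 448 and 518 CPM against 584, 552 and 647 CPM (0.25 ± 0.14), and Csf2rb, the shared beta chain and a near copy of it, 438, 372 and 432 CPM against 437.9, 449 and 501 CPM (0.16 ± 0.14). On the lower side, the stem cell factor receptor gene Kit measured 2.78, 2.22 and 2.94 CPM against 0.776, 1.92 and 2.00 CPM (-0.78 ± 0.42), and Kitl, its ligand, 8.77, 10.6 and 9.79 CPM against 4.92, 8.77 and 7.91 CPM (-0.43 ± 0.23). Kitl groups were apart by less than 0.01 CPM.

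Of 22 tested complement and coagulation genes 3 lay wholly higher and 3 wholly lower, with a median of 0.19, and 0.13 with the GC correction. Cfp, encoding properdin, which stabilises the alternative pathway convertase, measured 291, 263 and 256 CPM in PBS and 573, 359 and 494 CPM in 1xLPS (0.82 ± 0.27). Serping1, the inhibitor of complement C1, measured 21.1, 15.8 and 21.0 CPM against 34.9, 27.0 and 31.0 CPM (0.68 ± 0.18), with 0.84 ± 0.18 in 4xLPS, which shares the PBS libraries. The third higher member, Cd55, lay at 0.409 to 0.538 CPM in PBS and 0.738 to 1.15 CPM in 1xLPS. On the lower side, Plau, the urokinase-type plasminogen activator, measured 148, 133 and 151 CPM against 56.1, 85.7 and 125 CPM (-0.70 ± 0.32), C5ar1, a receptor for the complement fragment C5a, 373, 348 and 459 CPM against 212, 293 and 324 CPM (-0.51 ± 0.29), and C3ar1, the receptor for C3a, 1086, 1024 and 966 CPM against 833, 961 and 779 CPM (-0.26 ± 0.19). Without the first 1xLPS library Plau came to -0.46, Kit to -0.44 and Kitl to -0.21. With the GC correction the values were 0.57 for Il3ra, 0.13 for Csf2rb2, 0.03 for Csf2rb, -0.13 for Kitl, 0.59 for Cfp, 0.58 for Serping1, -0.67 for Plau and -0.05 for C3ar1.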
